A study of Mus musculus with 17 samples.

Results

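The antioxidant and redox enzymes of the mouse left ventricle were taken as the protein-coding genes whose symbols begin with the stems Gpx, Prdx, Sod, Gst, Txn, Nox, Nqo, Srxn, Hmox, Gclc, Gclm, Cat, Mt1 or Mt2. This rule found 64 of the 21798 listed genes, and 59 of them reached 0.5 CPM (read counts scaled to the same total in every library) in at least 3 libraries and were tested, out of 16218 tested genes. Gsta2, Gstm3, Nox1, Prdx6b and Txndc2 did not pass this filter and were not tested. Another 6 symbols that match the stems are not annotated as protein-coding and were left out. The rule reads symbols and no measured value, but it was chosen with earlier results of these data known.

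Bulk RNA-sequencing was performed on left ventricular apex from male C57Bl6/J mice that were between 7 and 8 weeks old when operated. Transverse aortic constriction (TAC), in which a ligature narrows the aortic arch and the ventricle has to pump against raised pressure, was compared with Sham surgery in which no ligature was tied. From 1 week after surgery the mice received 29P, an oral RGD-mimetic prodrug, at 50 μg/kg by gavage, or the same volume of saline as Vehicle (Veh), and the tissue was taken at 3 weeks. There were 9 TAC libraries, 3 with Veh (TAC Veh) and 6 with 29P (TAC 29P), and 8 Sham libraries, 5 with Veh (Sham Veh) and 3 with 29P (Sham 29P), all from wild-type mice with no transgene, and the labels do not say whether each library came from a separate mouse. The paper gives the same group sizes as its n. It left out libraries with low read numbers, and also a Veh TAC library because it clustered with Sham. The TAC Veh group was thus chosen in part by its expression, which favours differences from Sham and groups that do not overlap. The values describe a piece of whole tissue, in which fewer cells of a type and less RNA per cell cannot be told apart.

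Oxygen radicals arise in heart muscle from the mitochondria and from NADPH oxidases, which make superoxide or hydrogen peroxide as their main product. Superoxide dismutases turn superoxide into hydrogen peroxide, which catalase, the glutathione peroxidases and the peroxiredoxins then reduce, and the thioredoxin and glutathione systems return the electrons with NADPH as the donor. Glutathione S-transferases couple glutathione to reactive lipids and drugs, quinone reductases and haem oxygenases remove quinones and free haem, and metallothioneins bind zinc and copper through their cysteines. Many of these genes are targets of the transcription factor NRF2, which binds the antioxidant response element, and the metallothioneins are induced through metal response elements.

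Total depth, estimated from the smallest steps of the CPM values, was 14.2 to 23.8 M reads per library, lowest in the Sham 29P library S14. Reads on the mitochondrial genome took 23.6% to 29.4% of the CPM in TAC libraries and 29.1% to 40.0% in Sham libraries, so the remaining genes shared a larger part of the total after TAC. The median tested gene was higher by 0.34 on the log2 scale in TAC than in Sham on the deposited CPM and by 0.01 after scaling with trimmed mean of M values (TMM) factors, which set the bulk of genes level. With totals without the mitochondrial-encoded genes the median was still higher by 0.18. Directions are therefore given on the deposited CPM, with the TMM value or call beside most of them. Differences are in log2(CPM + 0.1), and a member was called where the adjusted p of limma's test over all 16218 genes was 0.05 or less. Libraries S18 (TAC 29P), S19 and S20 (both Sham Veh) held the atrial transcript Myl7, the atrial myosin light chain, at 335 to 895 CPM, against at most 1.0 CPM in the other 14 libraries, although all were labelled left ventricle. The cardiomyocyte markers were high in all libraries, with a summed level of 24490 to 40150 CPM over 6 genes.

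The promoter windows of 3 members are shown because they hold the letters of the response elements named above. Of these members Gsta3 alone was called between TAC and Sham under both scalings, as given below. Each is the 250 bases before a RefSeq transcript start on GRCm38.p6, written 5′ to 3′ on the gene's strand with the motif in capitals. For Txnrd1, cytosolic thioredoxin reductase, the window (chr10:82858956-82859205, plus strand) precedes a start inside the gene, and for Gsta3, an alpha-class glutathione S-transferase, it precedes the first exon (chr1:21240335-21240584, plus strand). Both hold the core of the antioxidant response element, TGACNNNGC, on the reverse strand in Txnrd1 (92 bases before the start) and on the forward strand in Gsta3 (121 bases before it).
Txnrd1: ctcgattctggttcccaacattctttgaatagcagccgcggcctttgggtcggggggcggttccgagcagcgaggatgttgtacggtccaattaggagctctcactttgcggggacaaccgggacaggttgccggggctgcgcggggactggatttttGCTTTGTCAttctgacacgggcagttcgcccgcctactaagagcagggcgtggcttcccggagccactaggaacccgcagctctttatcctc
Gsta3: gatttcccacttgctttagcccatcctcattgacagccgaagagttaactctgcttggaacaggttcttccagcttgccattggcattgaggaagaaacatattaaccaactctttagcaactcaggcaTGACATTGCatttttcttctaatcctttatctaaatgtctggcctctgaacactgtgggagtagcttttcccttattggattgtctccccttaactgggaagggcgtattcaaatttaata
The Mt2 window (chr8:94172368-94172617, plus strand) holds 5 copies of the core of the metal response element, TGCNCNC, at 223, 178, 128, 113 and 50 bases before the start, with those at 178 and 50 on the reverse strand. It also holds TGACNNNGC once, at 79 bases, left in lower case.
Mt2: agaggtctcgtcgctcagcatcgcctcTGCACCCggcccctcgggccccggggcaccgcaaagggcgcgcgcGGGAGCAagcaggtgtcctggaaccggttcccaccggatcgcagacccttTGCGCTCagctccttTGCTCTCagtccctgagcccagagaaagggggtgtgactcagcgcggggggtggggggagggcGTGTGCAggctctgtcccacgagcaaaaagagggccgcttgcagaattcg
Searched on both strands, TGACNNNGC was present in 11 of the 55 members with a RefSeq window (20%) and in 11.5% of all 27025 genes with one. The core TGCNCNC was present in 52.7% of these members and 47.2% of all genes, and 4 or more copies were present in 1.49% of all genes and in Mt2 alone among the members. TGACNNNGC can contain TGACTCA, the letters of an AP-1 site, which was not searched for separately. A match is a description of the letters and not a measured binding site.

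Per kilobase of exon, the 59 tested members spanned from 0.135 to 133 CPM. The highest was Prdx3, the mitochondrial peroxiredoxin, at 133 CPM per kb, followed by Txnip, the thioredoxin inhibitor, at 123, Gpx3, the secreted plasma glutathione peroxidase, at 96.6, and Prdx5, which also works in mitochondria, at 96.2 CPM per kb. Prdx3 differed little between libraries, with a mean of 206 ± 18.6 CPM (SD, n = 5) in Sham Veh and 181 ± 16.6 CPM (SD, n = 3) in TAC Veh. The highest of the other roles were Mt1 (70.6 CPM per kb), catalase (Cat, 57.2), Gstm1 (47.7), the mitochondrial superoxide dismutase Sod2 (38.6), Txndc17 (31.5), Nqo1 (24.8), Gclm (4.27) and Nox4 (0.624 CPM per kb). The NADPH oxidases were the lowest role, with Nox4 and Noxo1 both below 1 CPM per kb. Length here is all annotated exon sequence of a gene, including rarely used exons, so levels of genes with many isoforms, such as Sod1, are understated.

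**Figure D1:**
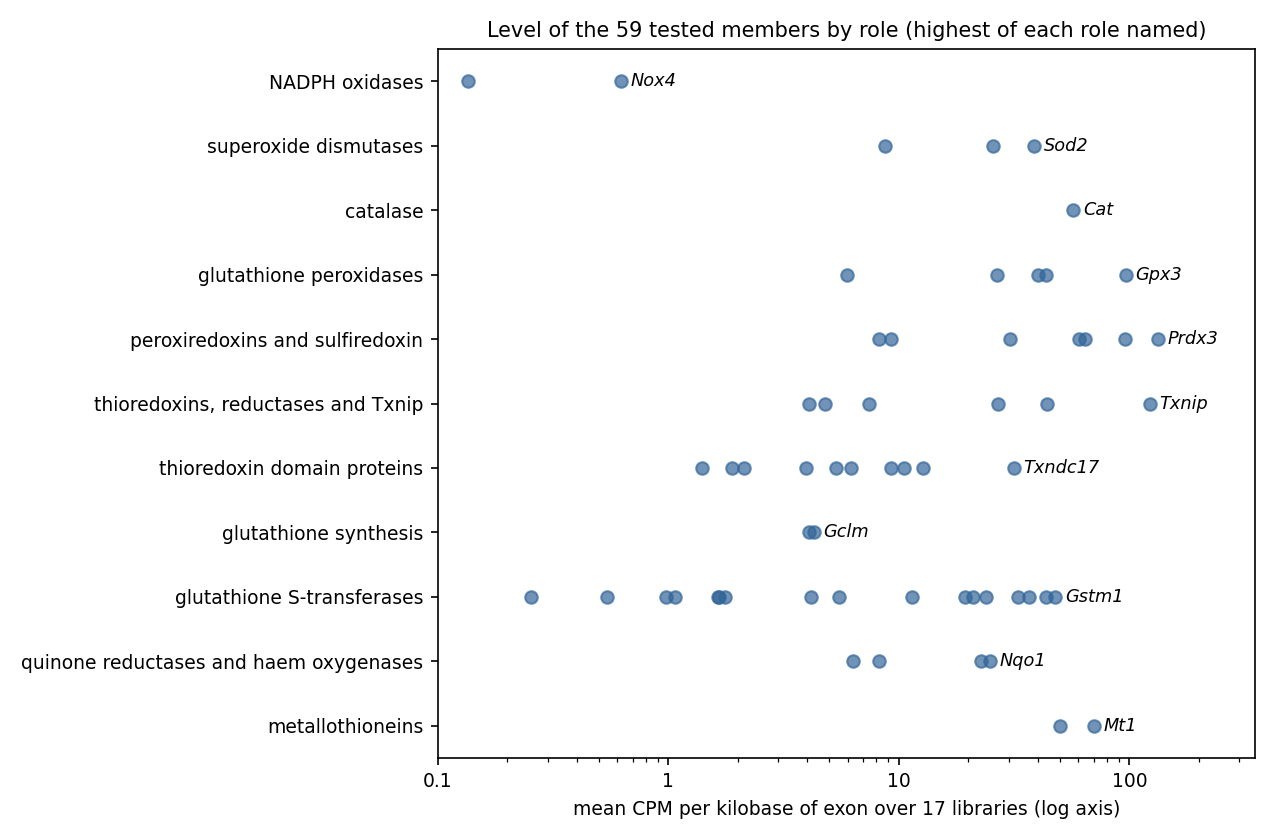
Mean level over the 17 libraries of each of the 59 tested members (points), in CPM per kilobase of exon on a log axis, by role. The highest member of each role is named, from Prdx3 at 133 CPM per kb to Nox4 at 0.624 CPM per kb.

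To ask how pressure overload changed these genes, TAC Veh was first compared with Sham Veh, without the Sham-like library that the paper left out. In this comparison 9 of the 59 members (15.3%) were higher and 5 (8.47%) were lower, where 23.6% of all tested genes were higher and 1.98% lower. The members higher in TAC Veh were Nox4, Sod3, Gpx1, Gpx7, Txndc5, Txndc16, Gsto1, Gstt3 and Nqo1, and those lower were Sod1, Gsta3, Gsta4, Gstk1 and Gstm7. With TMM factors 1 member (1.69%) was higher and 15 (25.4%) were lower, against 4.45% and 5.7% of all genes. Nox4 was the member higher under both scalings, and the 5 lower members were lower under both. The median over the 59 members was 0.11 on the deposited CPM, where all genes had a median of 0.33, and -0.22 with TMM factors, where all genes had a median of 0.01. At an unadjusted p of 0.05 or less 22 members differed, against 41.9% of all genes, and in 13 the groups did not overlap, against 29.8%. Without TAC Veh library S2 no member was called higher and 1 was called lower, and over all genes the calls fell to 464 higher and 45 lower, from 3827 and 321.

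Between TAC 29P and Sham 29P, 17 members (28.8%) were higher and 3 (5.08%) were lower, against 31.5% and 1.15% of all genes. With TMM factors 6 were higher (Nox4, Noxo1, Gpx1, Gpx7, Sod3 and Txndc5, 10.2%) and 9 lower (15.3%), against 5.89% and 5.37%. Noxo1 was tested only because 5 TAC 29P libraries, and none of any other group, reached 0.5 CPM, so its place among the higher members here and below follows in part from the filter. Gsta3, Gsta4 and Gstk1 were lower under both scalings. At an unadjusted p of 0.05 or less 31 members differed, against 45.4% of all genes, and in 22 the groups did not overlap, against 26.1%. Without Sham 29P library S14, the shallowest, 3 members were called higher and 1 lower, and over all genes the calls fell to 1009 higher and 38 lower, from 5110 and 187. The numbers within the library names, whose meaning the labels do not give, fall into 4 runs, and with a covariate for the run 2 of the 20 calls (Gpx7 and Txndc17) were kept, while 820 of all genes were higher and 34 lower. Nox4 (adjusted p = 0.0772), Sod3 (0.0862), Txndc5 (0.0530) and Gstk1 (0.115) lost their calls with this covariate and kept their direction. The comparison of TAC Veh with Sham Veh uses none of these group means, though both rest on 1 estimate of the spread.

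Over both treatments, in which the TAC minus Sham differences under Veh and under 29P are averaged, 26 members (44.1%) were higher and 7 (11.9%) were lower, against 50.3% and 3.16% of all genes. With TMM factors 6 (10.2%) were higher and 20 (33.9%) were lower, against 14.3% and 13.8%. The 6 higher under both were Nox4, Gpx1, Gpx7, Sod3, Txndc5 and Noxo1, the last of which passed the filter only through TAC 29P. The 7 lower under both were Sod2, Gsta3, Gsta4, Gstk1, Gstm2, Gstm7 and Nqo2. Of the 26 higher members, 9 changed sign under TMM factors (Cat, Gstm4, Gclc, Hmox2, Txndc12, Txndc16, Txndc17, Txn1 and Txnrd3). In 4 members the 9 TAC and 8 Sham libraries did not overlap in CPM, against 9.74% of all genes: Gpx7 and Nqo1 were higher, and Gsta4 and Gstk1 lower, in all TAC libraries. Across the 4 runs of library name numbers, 29 of the 33 called members had the same direction in all 4 runs and the other 4 in 3 of them. Run 1 held 6 TAC and 3 Sham libraries, and runs 2 to 4 held 1 TAC library each. The members were called on these same libraries, so the agreement is no independent check. The share over all genes was not computed.

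**Figure D2:**
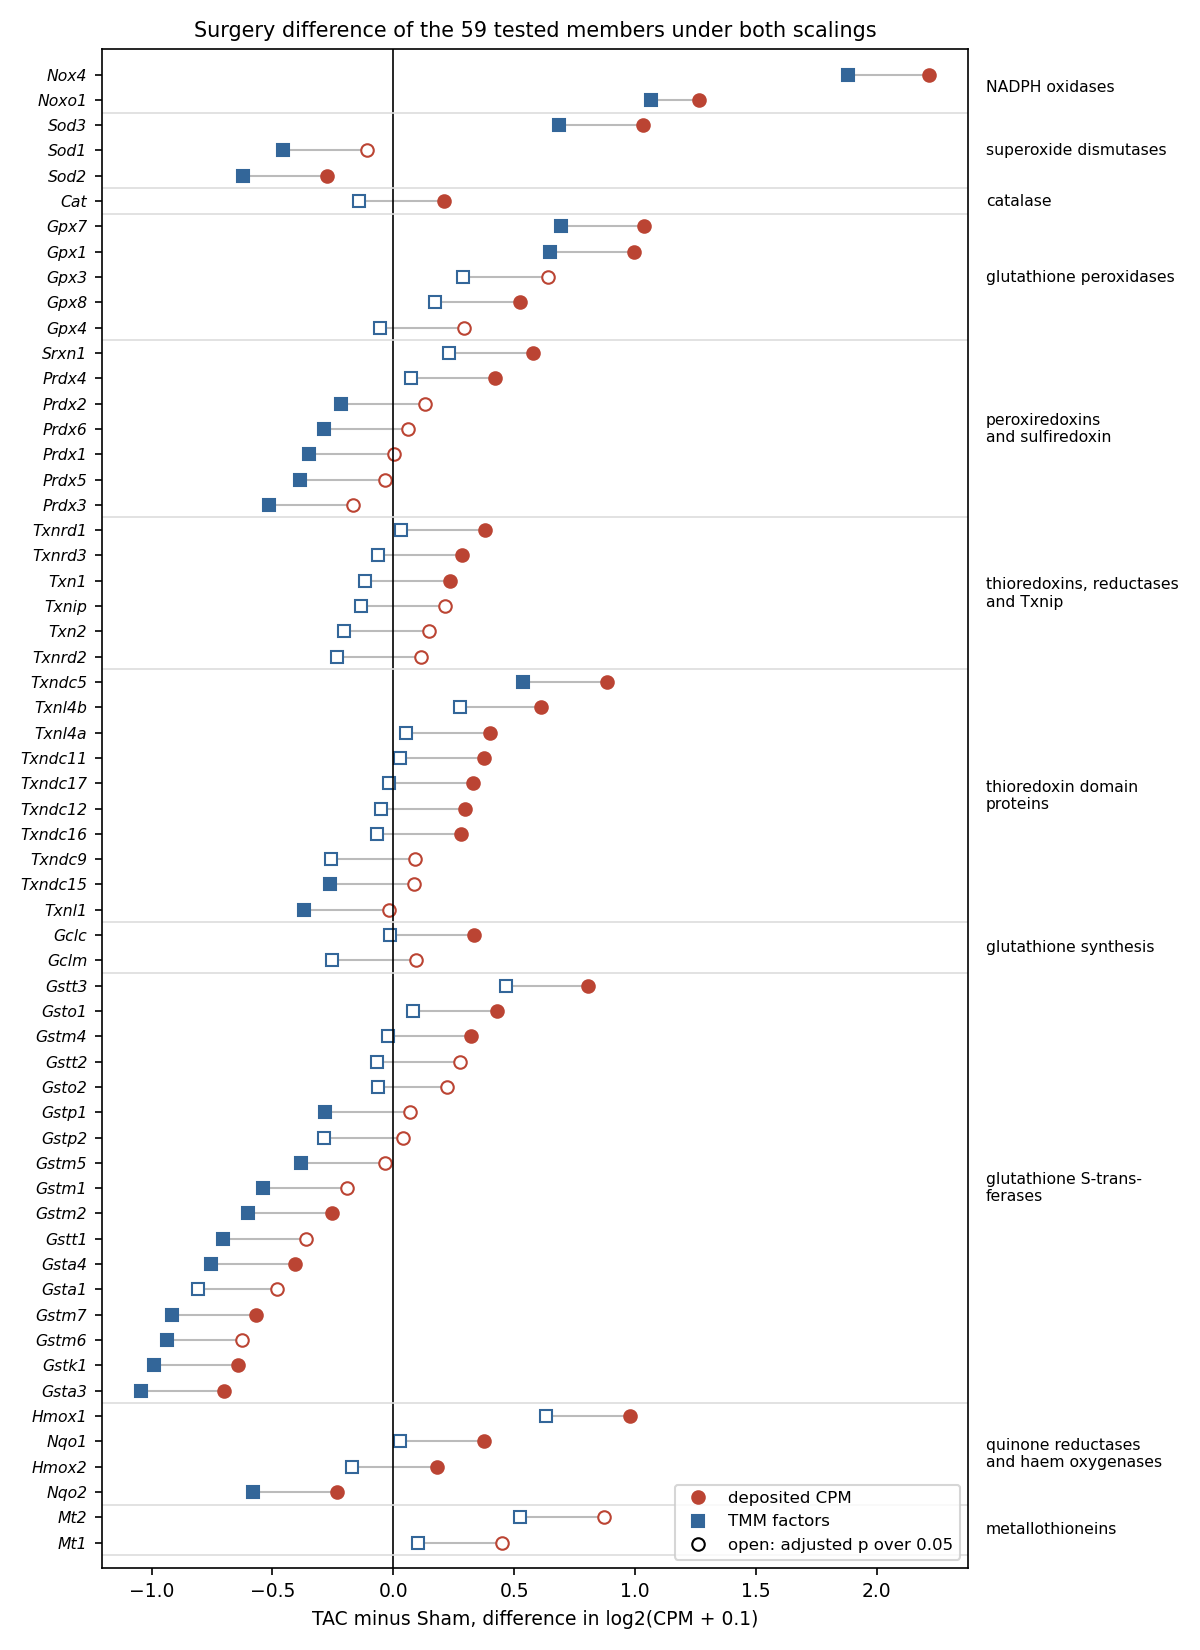
Difference between TAC and Sham over both treatments for the 59 tested members, in log2(CPM + 0.1), grouped by role, on the deposited CPM (circles) and with TMM factors (squares), with open symbols for an adjusted p over 0.05. TMM factors move all members to lower values by a similar amount. Nox4 lies at 2.22 and 1.88, and Gstk1 at -0.64 and -0.99.

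Cell type markers also differed by surgery. Of the 6 cardiomyocyte markers Tnni3 and Ryr2 were lower over both treatments under both scalings, and Actn2 was higher on the deposited CPM alone. With TMM factors 5 of them were lower, against 13.8% of all genes. All 6 fibroblast markers, all 6 macrophage markers and all 5 endothelial markers were higher over both treatments, against 50.3% of all genes. Of these, 3, 5 and 2 were also higher with TMM factors, against 14.3%. The summed fibroblast markers were at 816 to 1247 CPM in Sham Veh, 684 to 917 CPM in Sham 29P, 1686 to 2497 CPM in TAC Veh and 1162 to 2506 CPM in TAC 29P, and the macrophage markers at 119.7 to 167 CPM, 96.5 to 198 CPM, 226 to 362 CPM and 221 to 288 CPM in the same order. The summed haemoglobin and other erythroid transcripts were at 3082 to 4992 CPM in TAC Veh against 1018 to 2463 CPM in Sham Veh. Retnlg and S100a9, which define neutrophils, were at 0 in some libraries, and the neutrophil list summed to at most 19.4 CPM. The part of these cell types in the member differences was not tested.

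Among the NADPH oxidases Nox4 was higher over both treatments under both scalings. Nox4 (chr7:87246096-87398710, plus strand, GRCm38) encodes the constitutively active oxidase that makes hydrogen peroxide in cardiomyocytes, fibroblasts and endothelial cells. Nox4 was at 1.14, 2.37, 1.43, 2.06 and 2.75 CPM in the 5 Sham Veh libraries and at 1.71, 0.916 and 1.41 CPM in the 3 Sham 29P libraries. The 3 TAC Veh libraries held it at 11.3, 8.17 and 9.70 CPM, and in the 6 TAC 29P libraries it ran from 1.99 to 15.2 CPM with a median of 6.48 CPM. All 3 TAC Veh values lay above every Sham value, whereas TAC 29P libraries S1 and S8 lay within the Sham range. The TAC Veh minus Sham Veh difference was 2.32 ± 0.52 (SE, adjusted p = 0.00699) on the log2 scale and 1.99 (adjusted p = 0.0174) with TMM factors. Between TAC 29P and Sham 29P it was 2.12 ± 0.51 (SE, adjusted p = 0.00781) and 1.77 (adjusted p = 0.0270) with TMM factors. Without S18, S19 and S20 the surgery difference over both treatments was 2.29 (adjusted p = 0.000845). Noxo1, the organiser subunit of the NOX1 oxidase, ran from 0.265 to 1.01 CPM in TAC 29P, and the other 3 groups held at most 0.422 CPM. It passed the filter only through the group where it is high. It stays in the counts above, but its calls there are no evidence of a difference, and no p-value is given for it. Reads shared with the overlapping gene Tbl3 on the opposite strand cannot be told apart.

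The 3 superoxide dismutases differed in direction. Sod3 (chr5:52363791-52371418, plus strand), the extracellular enzyme held on the matrix, rose. Sod3 was at 22.3, 16.1, 29.99, 23.3 and 28.5 CPM in the 5 Sham Veh libraries and at 27.9, 12.4 and 16.8 CPM in the 3 Sham 29P libraries. After TAC its values were 63.01, 38.6 and 40.2 CPM with Veh (n = 3), and with 29P (n = 6) it ran from 27.5 to 49.6 CPM with a median of 40.9 CPM. TAC Veh did not overlap Sham Veh, and the lowest TAC 29P values overlapped the Sham range. The difference was 0.97 ± 0.26 (SE, adjusted p = 0.0149) for TAC Veh and 1.1 ± 0.25 (SE, adjusted p = 0.00628) under 29P, with TMM values of 0.64 (adjusted p = 0.0507) and 0.73 (adjusted p = 0.0230). Sod2, the mitochondrial manganese enzyme, fell over both treatments by 0.27 (adjusted p = 0.00805), and its TMM value was -0.62 (adjusted p = 5.34e-05). Sod1, the cytosolic copper and zinc enzyme, was lower in TAC Veh than in Sham Veh, with a difference of -0.32 ± 0.11 (SE, adjusted p = 0.0447) and a TMM value of -0.65 (adjusted p = 0.00242). Its call was lost on the deposited CPM without S18, S19 and S20, where the difference was -0.28 (adjusted p = 0.136).

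Catalase, which degrades hydrogen peroxide in peroxisomes, is the only member of its role. Cat was at 147, 132, 146, 106 and 139 CPM in the 5 Sham Veh libraries and at 142, 131 and 156 CPM in the 3 Sham 29P libraries. In TAC Veh its 3 values were 167, 159 and 145 CPM, and over the 6 TAC 29P libraries it ran from 149 to 184 CPM with a median of 159.8 CPM. The groups overlapped. Its difference over both treatments was 0.21 ± 0.08 (SE, adjusted p = 0.0305) on the deposited CPM and -0.14 (adjusted p = 0.143) with TMM factors, of opposite sign.

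Glutathione peroxidases reduce peroxides with glutathione. Over both treatments 3 of the 5 tested (Gpx1, Gpx7 and Gpx8) were higher, against 50.3% of all genes. Gpx1 and Gpx7 were also higher with TMM factors, against 14.3%. Gpx7 (chr4:108400390-108406961, minus strand) encodes a peroxidase of the endoplasmic reticulum. Gpx7 was at 5.13, 4.61, 6.37, 6.79 and 7.49 CPM in the 5 Sham Veh libraries and at 5.12, 2.68 and 3.87 CPM in the 3 Sham 29P libraries. The 3 TAC Veh libraries held it at 11.6, 8.61 and 10.9 CPM, and in the 6 TAC 29P libraries it ran from 7.60 to 12.7 CPM with a median of 9.02 CPM. Every TAC library was above every Sham library on the deposited CPM, where the closest values were 7.60 CPM (TAC 29P) and 7.49 CPM (Sham Veh). The difference was 0.77 ± 0.21 (SE, adjusted p = 0.0176) between TAC Veh and Sham Veh, 1.30 ± 0.21 (SE, adjusted p = 0.00120) between TAC 29P and Sham 29P, and 1.04 ± 0.15 (SE, adjusted p = 8.11e-05) over both, where the TMM value was 0.69 (adjusted p = 0.000566). Gpx1, the widespread cytosolic and mitochondrial enzyme, was higher by 1.0 ± 0.17 (SE, adjusted p = 0.000222) over both treatments, with a TMM value of 0.65 (adjusted p = 0.00147). Gpx8, also of the endoplasmic reticulum, was higher by 0.52 ± 0.13 (SE, adjusted p = 0.00402), and its TMM value was 0.17 (adjusted p = 0.364).

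The libraries with atrial transcripts bear on Gpx3, whose values were looked at in each library after they were seen. S18, S19 and S20 are also all the libraries of run 4 of the library name numbers. They also held the highest summed adipocyte markers, at 2.28 to 12.7 CPM, against at most 1.94 CPM in the other 14. Atrial transcripts, adipocyte markers and run therefore cannot be told apart here. S18, S19 and S20 held Gpx3 at 388, 433 and 413 CPM, and the other 14 libraries at 49.8 to 208 CPM, with no overlap. With all libraries the surgery difference was 0.64 ± 0.37 (SE, adjusted p = 0.149), and without these 3 libraries it was 0.99 (adjusted p = 0.000589), with a TMM value of 0.64 (adjusted p = 0.00245). Gstm6, a low mu-class transferase, was also at 1.57 to 3.57 CPM in these 3 libraries and at 0.422 to 1.33 CPM in the other 14.

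**Figure D3:**
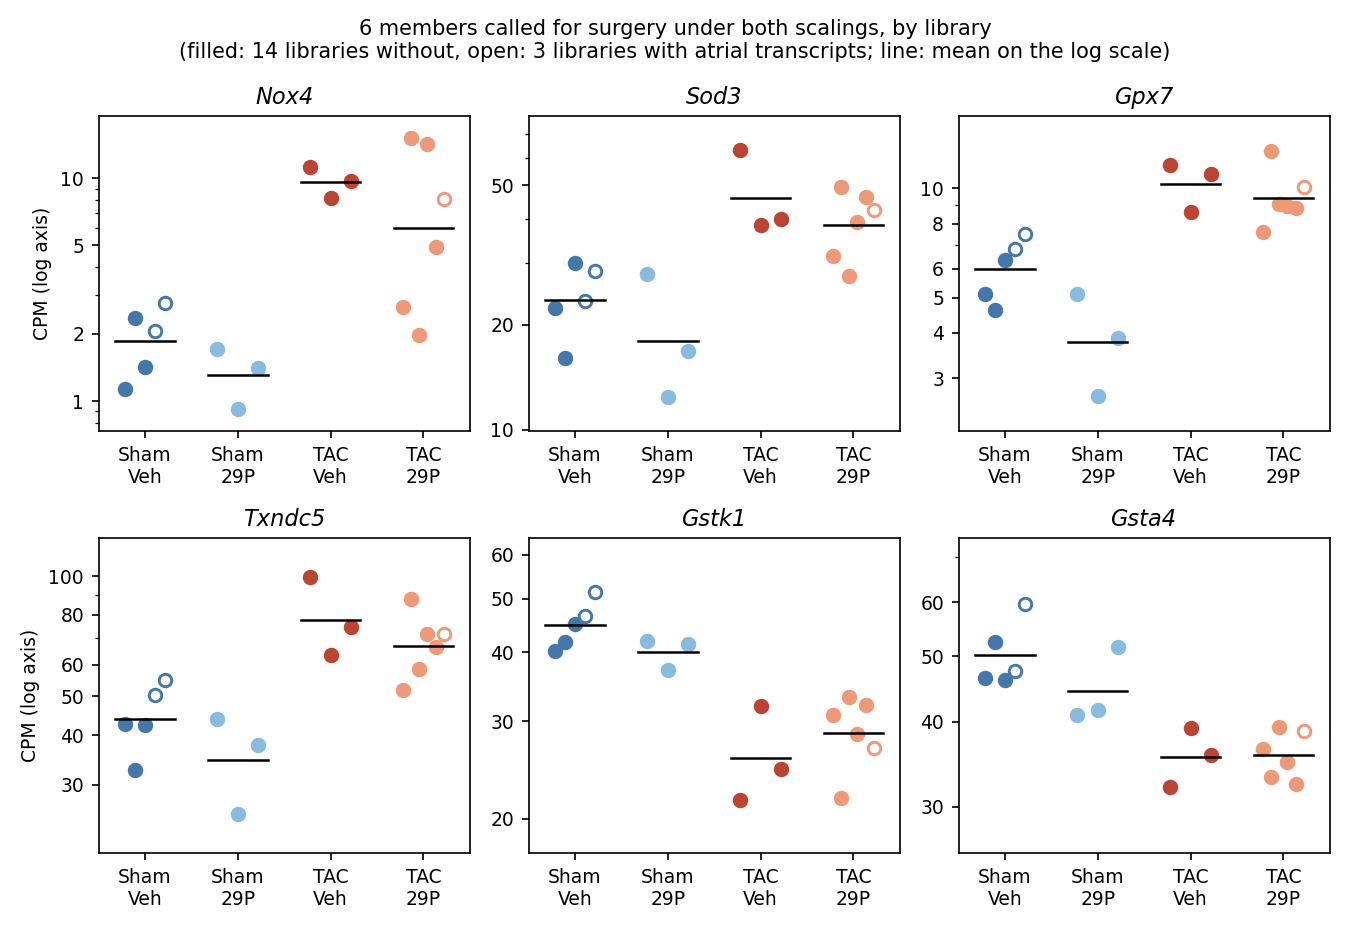
CPM in each library (points, log axis) of 6 members called for surgery under both scalings, by group, with open points for the 3 libraries with atrial transcripts and lines at the mean on the log2(CPM + 0.1) scale. Nox4, Sod3, Gpx7 and Txndc5 are higher, and Gstk1 and Gsta4 lower, after TAC, and the Nox4 values spread from 1.99 to 15.2 CPM in TAC 29P.

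Peroxiredoxins are abundant thiol peroxidases, and sulfiredoxin (Srxn1) repairs them when their cysteine is over-oxidised. Of the 7 tested, Srxn1 and Prdx4, the form in the endoplasmic reticulum, were higher over both treatments, against 50.3% of all genes. With TMM factors none passed the test as higher and the other 5 were lower, against 14.3% and 13.8%. Srxn1 was at 24.9, 17.99, 18.3, 29.3 and 28.1 CPM in the 5 Sham Veh libraries and at 22.3, 14.5 and 15.8 CPM in the 3 Sham 29P libraries. After TAC its values were 31.5, 21.6 and 45.05 CPM with Veh (n = 3), and with 29P (n = 6) it ran from 23.4 to 33.4 CPM with a median of 27.9 CPM. Sham Veh and TAC Veh overlapped. The Srxn1 difference was 0.58 ± 0.15 (SE, adjusted p = 0.00504) over both treatments and 0.23 (adjusted p = 0.229) with TMM factors. For Prdx4 these values were 0.42 ± 0.13 (SE, adjusted p = 0.0147) and 0.07 (adjusted p = 0.711). Prdx3, the highest of the role, had a difference of -0.17 ± 0.07 (SE, adjusted p = 0.0588), and its TMM value was -0.51 (adjusted p = 0.000112).

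In the thioredoxin system, 3 of 6 tested members were higher on the deposited CPM, close to the 50.3% of all genes, and none in either direction with TMM factors. Txnrd1 was at 53.6, 35.7, 41.6, 42.04 and 52.3 CPM in the 5 Sham Veh libraries and at 56.1, 38.6 and 41.2 CPM in the 3 Sham 29P libraries. In TAC Veh its 3 values were 61.6, 50.6 and 56.1 CPM, and over the 6 TAC 29P libraries it ran from 56.8 to 65.1 CPM with a median of 59.9 CPM. The lowest TAC Veh value lay below the highest Sham Veh value. Over both treatments the Txnrd1 difference was 0.38 ± 0.10 (SE, adjusted p = 0.00403) and its TMM value 0.03 (adjusted p = 0.770). Txn1, the cytosolic thioredoxin, differed by 0.23 ± 0.10 (SE, adjusted p = 0.0490) and Txnrd3, a reductase best known from testis, by 0.28 ± 0.09 (SE, adjusted p = 0.0138), and both were below 0 with TMM factors, at -0.12 and -0.06. Txnip, which binds and inhibits thioredoxin, had a mean of 341 ± 48.2 CPM (SD, n = 5) in Sham Veh and 415 ± 8.69 CPM (SD, n = 3) in TAC Veh, and did not pass the test in any comparison.

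Thioredoxin domain proteins include the folding enzymes of the endoplasmic reticulum. On the deposited CPM 7 of 10 tested were higher over both treatments, against 50.3% of all genes. With TMM factors Txndc5 alone was higher and Txnl1 and Txndc15 were lower, against 14.3% and 13.8%. Txndc5 (chr13:38500079-38528824, minus strand) encodes a protein disulfide isomerase that is abundant in secretory cells. Txndc5 was at 42.7, 32.6, 42.5, 50.4 and 55.01 CPM in the 5 Sham Veh libraries and at 43.9, 25.3 and 37.7 CPM in the 3 Sham 29P libraries. The 3 TAC Veh libraries held it at 99.5, 63.6 and 74.6 CPM, and in the 6 TAC 29P libraries it ran from 51.8 to 87.5 CPM with a median of 68.96 CPM. TAC Veh and Sham Veh did not overlap. The Txndc5 difference was 0.82 ± 0.20 (SE, adjusted p = 0.0105) for TAC Veh, 0.95 ± 0.20 (SE, adjusted p = 0.00398) under 29P and 0.88 ± 0.14 (SE, adjusted p = 0.000170) over both, with a TMM value of 0.54 (adjusted p = 0.00183). The gene overlaps Bmp6 on the opposite strand in the annotation. Txndc11, Txndc12, Txndc16, Txndc17, Txnl4a and Txnl4b were higher over both treatments by 0.28 to 0.61, and their TMM values ran from -0.07 to 0.27 with adjusted p of 0.253 or more. Txnl4a and Txnl4b encode spliceosome proteins with a thioredoxin fold rather than antioxidant enzymes.

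Glutathione synthesis is limited by glutamate-cysteine ligase, whose catalytic subunit is Gclc and whose modifier subunit is Gclm. Gclc was at 13.4, 12.9, 12.8, 14.2 and 16.2 CPM in the 5 Sham Veh libraries and at 14.99, 12.97 and 11.3 CPM in the 3 Sham 29P libraries. After TAC its values were 18.1, 14.3 and 19.8 CPM with Veh (n = 3), and with 29P (n = 6) it ran from 13.7 to 21.3 CPM with a median of 16.3 CPM. The groups overlapped. The Gclc difference was 0.33 ± 0.11 (SE, adjusted p = 0.0162) over both treatments and -0.01 (adjusted p = 0.934) with TMM factors. For Gclm it was 0.09 ± 0.10 (SE, adjusted p = 0.462).

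The glutathione S-transferases were the largest role, with 17 of 19 tested, and held the most members that were lower. Over both treatments 5 were lower (Gsta3, Gsta4, Gstk1, Gstm2 and Gstm7) and 3 higher (Gstm4, Gsto1 and Gstt3) on the deposited CPM. The shares of all genes were 3.16% lower and 50.3% higher. With TMM factors 10 were lower and none higher, against 13.8% and 14.3%. Gstk1 (chr6:42245935-42250447, plus strand) encodes the kappa-class enzyme of mitochondria and peroxisomes. Gstk1 was at 40.1, 41.8, 45.01, 46.4 and 51.4 CPM in the 5 Sham Veh libraries and at 41.8, 37.1 and 41.4 CPM in the 3 Sham 29P libraries. In TAC Veh its 3 values were 21.7, 32.04 and 24.6 CPM, and over the 6 TAC 29P libraries it ran from 21.8 to 33.2 CPM with a median of 29.6 CPM. All 9 TAC libraries were below all 8 Sham libraries. The difference was -0.80 ± 0.14 (SE, adjusted p = 0.00224) between TAC Veh and Sham Veh, -0.48 ± 0.14 (SE, adjusted p = 0.0180) between TAC 29P and Sham 29P and -0.64 ± 0.10 (SE, adjusted p = 0.000152) over both, where the TMM value was -0.99 (adjusted p = 1.76e-05).

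Gsta4 (chr9:78182774-78209349, plus strand), whose enzyme conjugates the lipid peroxidation product 4-hydroxynonenal, was also below every Sham library in every TAC library. It fell by 0.41 over both treatments (adjusted p = 0.000872), with a TMM value of -0.75 (adjusted p = 4.90e-05). Gstm7 and Gsta3 differed by -0.57 ± 0.12 (SE, adjusted p = 0.000979) and -0.70 ± 0.16 (SE, adjusted p = 0.00228) over both treatments, and Gstm2 by -0.25 ± 0.09 (SE, adjusted p = 0.0245). Of the higher members, Gsto1, an omega-class enzyme, differed by 0.43 ± 0.08 (SE, adjusted p = 0.000614) and had a TMM value of 0.08 (adjusted p = 0.418). For Gstt3, a theta-class enzyme, these were 0.81 ± 0.19 (SE, adjusted p = 0.00211) and 0.47 (adjusted p = 0.0579), and for Gstm4 0.32 ± 0.13 (SE, adjusted p = 0.0427) and -0.02 (adjusted p = 0.895), which lies below 0. Gstm1, the highest of the role, had a difference of -0.19 ± 0.12 (SE, adjusted p = 0.173) and a TMM value of -0.54 (adjusted p = 0.000846). The genes of one class are similar in sequence and lie in clusters, and how reads that fit several of them were counted is not given in the sources used here, so the split between neighbours such as Gstm2 and Gstm7 is uncertain.

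Of the quinone reductases and haem oxygenases, Nqo1, Hmox1 and Hmox2 were higher and Nqo2 lower over both treatments, against 50.3% and 3.16% of all genes. Nqo1 was at 34.9, 35.8, 35.7, 25.8 and 33.7 CPM in the 5 Sham Veh libraries and at 32.6, 35.9 and 32.5 CPM in the 3 Sham 29P libraries. The 3 TAC Veh libraries held it at 53.6, 44.4 and 37.96 CPM, and in the 6 TAC 29P libraries it ran from 36.6 to 53.2 CPM with a median of 40.8 CPM. Every TAC library was above every Sham library on the deposited CPM. The Nqo1 difference was 0.37 ± 0.10 (SE, adjusted p = 0.00464) over both treatments and 0.03 (adjusted p = 0.861) with TMM factors, and with TMM factors and without S18, S19 and S20 it was -0.01. Nqo2, whose enzyme uses dihydronicotinamide riboside as the electron donor, differed by -0.23 ± 0.09 (SE, adjusted p = 0.0415), with a TMM value of -0.58 (adjusted p = 0.000278). Hmox1, the inducible haem oxygenase, differed by 0.98 ± 0.33 (SE, adjusted p = 0.0199) with a TMM value of 0.63 (adjusted p = 0.140), and by 1.15 (adjusted p = 0.00325) without S18, S19 and S20. Hmox2, the constitutive form, differed by 0.18 ± 0.06 (SE, adjusted p = 0.0263), and its TMM value was -0.17 (adjusted p = 0.0636), of opposite sign.

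Neither metallothionein passed the test for surgery. Mt2 was at 7.35, 29.6, 12.4, 32.02 and 54.2 CPM in the 5 Sham Veh libraries and at 15.03, 8.59 and 28.4 CPM in the 3 Sham 29P libraries. After TAC its values were 46.02, 18.5 and 78.7 CPM with Veh (n = 3), and with 29P (n = 6) it ran from 19.9 to 40.8 CPM with a median of 25.5 CPM. The groups overlapped, and Mt2 had the widest spread within groups of the 59 members. The Mt2 difference was 0.87 ± 0.38 (SE, adjusted p = 0.0585) over both treatments and 1.15 (adjusted p = 0.0160) without S18, S19 and S20. For Mt1 these values were 0.45 ± 0.23 (SE, adjusted p = 0.0978) and 0.61 (adjusted p = 0.0349). Mt2 is the member with the 5 metal response element cores printed above.

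**Figure D4:**
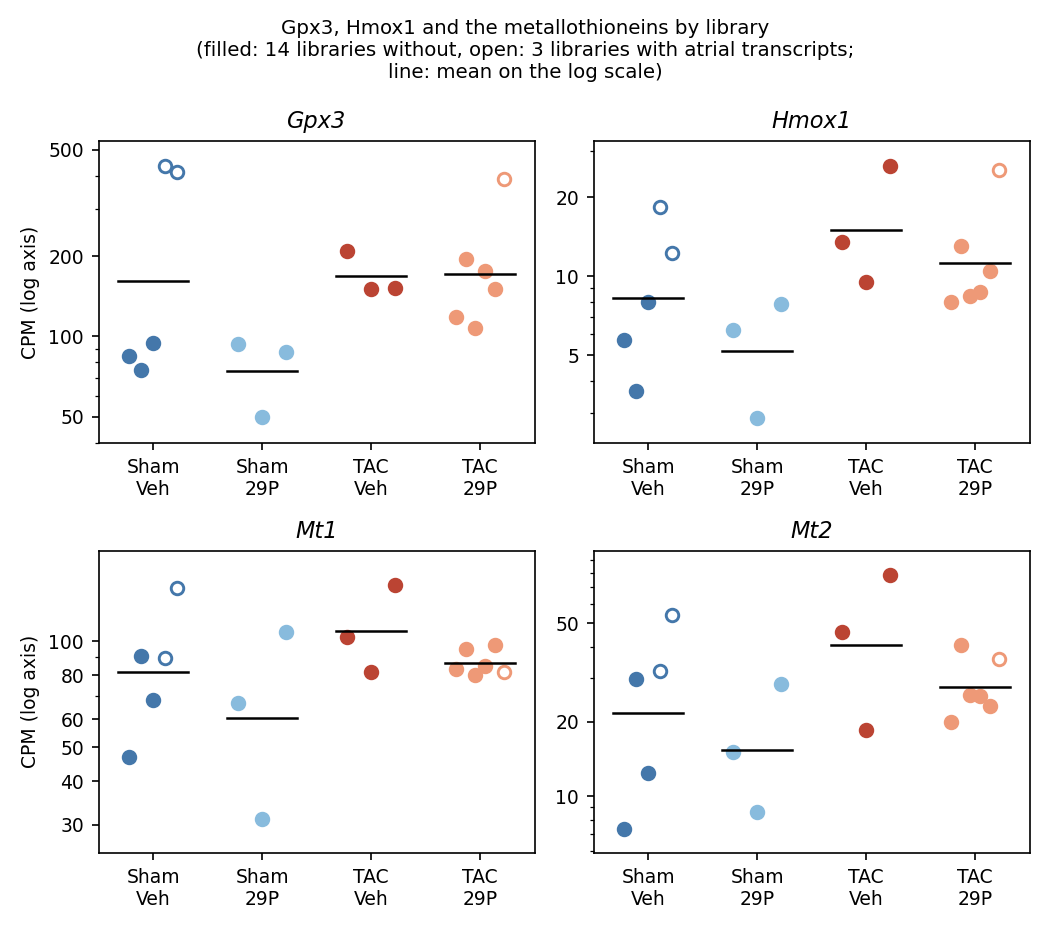
CPM in each library (points, log axis) of Gpx3, Hmox1, Mt1 and Mt2 by group, with open points for the libraries with atrial transcripts (S18, S19 and S20) and lines at the mean on the log2(CPM + 0.1) scale. The 3 open points are the highest for Gpx3, at 388 to 433 CPM, and the Mt2 groups overlap.

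29P was compared with Vehicle within each surgery, to ask whether treatment changed these genes. Within TAC no member was called, where 0.0% of all genes were, and none had an unadjusted p of 0.05 or less, where 2.06% of all genes did. The smallest p was that of Sod2, with a TAC 29P minus TAC Veh difference of 0.20 ± 0.11 (SE, adjusted p = 1.0). The TAC 29P and TAC Veh libraries did not overlap for 1 member, Sod1, against 1.83% of all genes. The 95% confidence interval lay within a 2-fold change in either direction for 51 of the 59 members. For Gpx7, Txndc5 and Gstk1 the differences were -0.13 (interval -0.56 to 0.31), -0.22 (-0.63 to 0.20) and 0.15 (-0.14 to 0.45). The other 8 had wider intervals, and that of Nox4 was -1.74 to 0.39 around a difference of -0.68. All 5 erythroid transcripts had an unadjusted p of 0.05 or less in this comparison, with a summed level of 1036 to 4151 CPM in TAC 29P against 3082 to 4992 CPM in TAC Veh, and none passed adjustment.

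Within Sham no member was called after adjustment, where 0.0% of all genes were, and 9 members were lower at an unadjusted p of 0.05 or less, where 6.72% of all genes passed this rule in either direction. These were Txndc12, Txndc17, Txnl4a, Txn1, Gpx1, Gpx3, Gpx7, Gstm5 and Sod1, with adjusted p between 0.715 and 0.735. Of these 9, Txndc12, Txndc17 and Txnl4a still passed this rule without S18, S19 and S20, 6 passed it with TMM factors and 5 with the covariate for the run. Txndc17, a cytosolic thioredoxin-like protein, was at 34.8, 45.1, 39.2, 46.9 and 43.3 CPM in Sham Veh and at 32.5, 25.9 and 35.8 CPM in Sham 29P. Only the highest Sham 29P value lay above the lowest Sham Veh value, and the difference was -0.42 ± 0.13 (SE, 95% interval -0.70 to -0.14, adjusted p = 0.715). Txndc12, a thioredoxin of the endoplasmic reticulum, was at 19.01, 18.6, 20.9, 22.3 and 25.4 CPM in Sham Veh and at 17.9, 12.7 and 16.6 CPM in Sham 29P. The groups did not overlap, as for 2.14% of all genes, and the difference was -0.44 ± 0.14 (SE, 95% interval -0.73 to -0.14, adjusted p = 0.715). For Gpx7, whose values are given above, the difference was -0.66 ± 0.21 (SE, 95% interval -1.1 to -0.21, adjusted p = 0.715). Library S14, the shallowest and the one with the highest mitochondrial share (40.0%), was the lowest of the Sham 29P libraries for all 3 genes. Gpx3 differed by -1.12 with all libraries and by -0.19 (adjusted p = 0.959) without S19 and S20 of Sham Veh and S18.

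The interaction, which asks whether the surgery difference itself differs between 29P and Vehicle, was called for no member, where 0.0% of all genes were called. At an unadjusted p of 0.05 or less it held 2 members, where 2.85% of all genes passed, namely Sod1 at 0.42 ± 0.16 (SE, adjusted p = 0.999) and Gstm5 at 0.41 ± 0.19 (SE, adjusted p = 0.999).

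**Figure D5:**
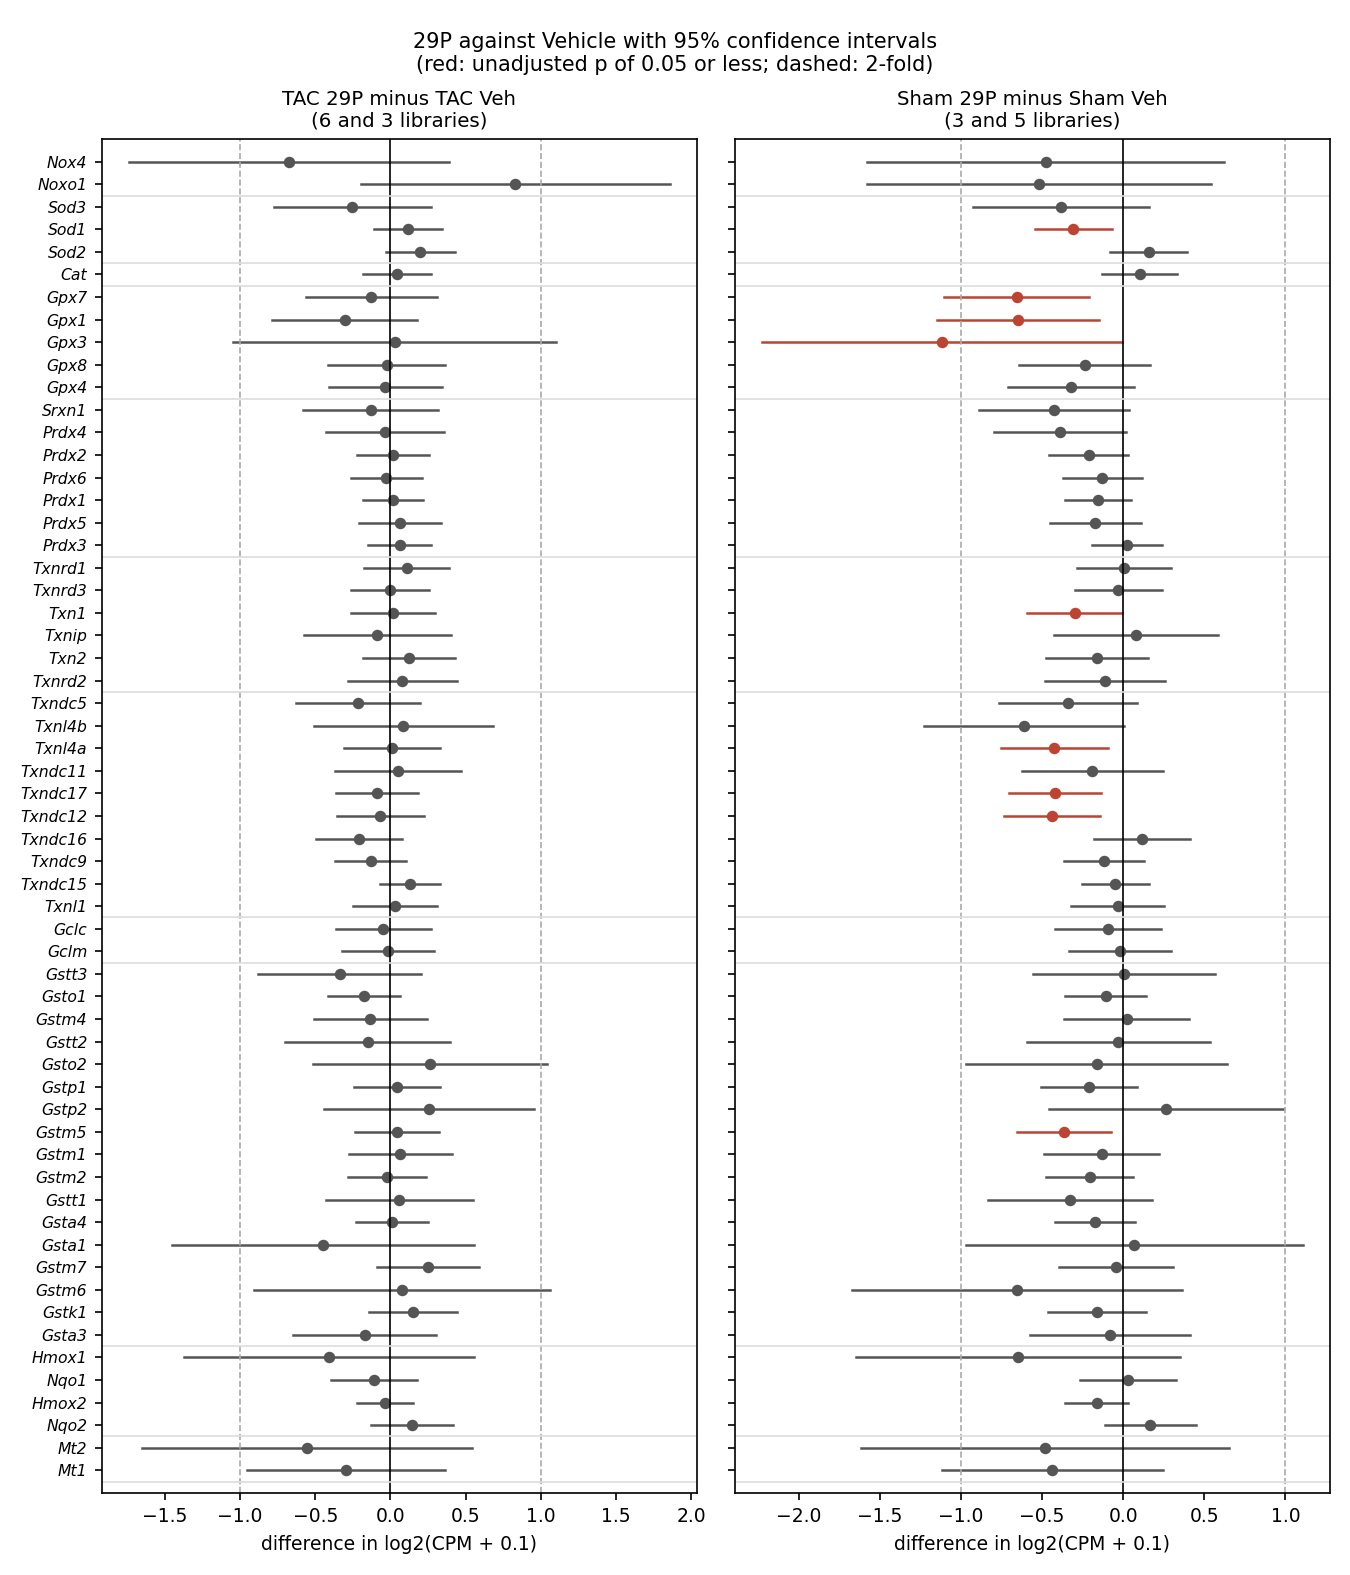
Difference between 29P and Vehicle for the 59 tested members within TAC (left) and within Sham (right), in log2(CPM + 0.1), with bars for the 95% confidence interval, red where the unadjusted p is 0.05 or less and dashed lines at a 2-fold change. No interval within TAC excludes 0, and 9 within Sham do, all below 0.

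The genes that regulate and supply these enzymes were read from fixed lists, which were chosen with earlier results of these data known. Their counts stand beside 50.3% of all genes higher and 3.16% lower over both treatments, and 14.3% and 13.8% with TMM factors. Of 10 NRF2 regulators, 5 were higher over both treatments on the deposited CPM, and with TMM factors 1 was higher and 3 were lower. Mafk, a small MAF partner of NRF2, was the one higher under both, at 0.87 and 0.52 (adjusted p = 0.000971 and 0.0185). Nfe2l2, which encodes NRF2, differed by 0.08 ± 0.18 (SE, adjusted p = 0.708). Keap1, which targets NRF2 for degradation, was higher by 0.33 ± 0.11 (SE, adjusted p = 0.0147) on the deposited CPM, with a TMM value of -0.01, which lies below 0.

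Of the genes of the phagocyte NADPH oxidase and its partners, Cybb, Ncf1, Ncf4 and Rac2 were higher over both treatments under both scalings. Cybb, the catalytic subunit NOX2, did not overlap between the TAC and Sham libraries and differed by 0.91 ± 0.17 (SE, adjusted p = 0.000480), with a TMM value of 0.56 (adjusted p = 0.00924). Rac1 differed by 0.33 ± 0.07 (SE, adjusted p = 0.00130) and had a TMM value of -0.02. The macrophage markers given above moved in the same direction, and their part in these differences was not tested.

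Among 14 genes of NADPH supply, 7 were higher and Nnt was lower over both treatments. With TMM factors 3 were higher and 4 were lower, Nnt among the latter. G6pdx and Pgd, dehydrogenases of the pentose phosphate pathway, were higher by 0.86 ± 0.16 (SE, adjusted p = 0.000493) and 0.56 ± 0.10 (SE, adjusted p = 0.000370), and the mitochondrial folate enzyme Mthfd2 by 1.69 ± 0.28 (SE, adjusted p = 0.000194). These 3 were also higher with TMM factors, at 0.52, 0.21 and 1.35. Nnt, the transhydrogenase of the inner mitochondrial membrane, had a difference of -0.36 ± 0.09 (SE, adjusted p = 0.00263) and was detected in every library at 373 CPM or more. The Jackson Laboratory's substrain of C57BL/6 carries a deletion within Nnt, and whether these mice do cannot be read from gene totals.

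Of 13 tested genes of glutathione synthesis, recycling and glutaredoxins, 4 were higher (Gss, Gsr, Ggt7 and Slc3a2) and 2 lower (Ggct and Chac2). With TMM factors 1 was higher (Ggt7) and 6 were lower (46.2%), against 14.3% and 13.8% of all genes. Gsr, glutathione reductase, differed by 0.43 ± 0.11 (SE, adjusted p = 0.00469) with a TMM value of 0.08. Of the 4 methionine sulfoxide reductases, Msrb1 and Msrb3 were higher and the mitochondrial Msrb2 was lower, and with TMM factors Msrb2 alone was called, at -0.53 (adjusted p = 0.000157). Of 6 genes of haem and iron handling, Blvra, Blvrb, Ftl1 and Tfrc were higher and the iron exporter Slc40a1 was lower, at -0.48 ± 0.09 (SE, adjusted p = 0.000371), without overlap between TAC and Sham libraries. With TMM factors Ftl1 was called higher, and Slc40a1 and Fth1 lower. No gene of these 6 lists was called by limma for 29P, and at an unadjusted p of 0.05 or less there were 2 within TAC and 6 within Sham.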

How the data were processed

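RNA-sequencing was analysed in 17 libraries of mouse left ventricular apex (polyA RNA, NEBNext Ultra II). Per the submitters' processing notes the authors used STAR 2.3.7 and Partek with the mm10 build, and they deposited CPM per annotated gene with 0.0001 added to each value. The counting tool and its strand setting are not given in the sources used here. Between 77.6% and 80.7% of low values were whole multiples of 1 read (within 0.02), so read counts were not recovered and no count model was used. Tests were made here with limma 3.58.1 in R 4.3.3 on log2(CPM + 0.1), with 1 mean per group over all 17 libraries, a variance trend and Benjamini-Hochberg adjustment over the 16218 genes with a CPM of at least 0.5 in 3 libraries. Summaries used Python 3.11.15.

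Groups came from the labels, and library numbers are those of the labels. The members, role groups and pathway lists were chosen with earlier results of these data known. Named were members with an adjusted p of 0.05 or less in any comparison or for surgery, members with an unadjusted p of 0.05 or less for 29P, and the highest member of each role. Values by library were given for the member of each role with the smallest p in TAC Veh against Sham Veh. For the 6 TAC 29P libraries these were shortened to the range and median. P-values measure the spread between these libraries, part of which may be technical. The labels do not tie the libraries to separate mice, while the paper gives the same group sizes as n and writes of mice. On simulated data with 200 of 16218 genes changed, the test of TAC Veh against Sham Veh called 51% of changes of 1 on the log2 scale and 15% of changes of 0.5 after adjustment. In the data themselves 3827 genes were called higher and 321 lower in this comparison. The cut-off after adjustment is looser with more genes changed, so these shares do not carry over to the data. Alternatives were TMM and median-of-ratios factors, totals without the 16 mitochondrial-encoded genes, added constants of 0.0001 and 1, other filters, a fit on just the compared groups, a covariate for the runs of numbers in the library names, no variance trend, the unadjusted p, and each library left out. Leaving out S18, S19 and S20 was chosen after seeing the data, and it leaves out the whole of run 4. Promoter windows came from RefSeq (GRCm38.p6) and gene positions from GENCODE vM21 (GRCm38). Not every gene of the pathway lists is reported here.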

Additional observations from a re-analysis of the deposited data

Results flagged for a closer look

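Within the groups of 5 and 6 libraries, 1 library stood apart from the rest of its group for 3 of the named members, in 5 instances. Nqo1 was at 25.8 CPM in Sham Veh library S19, where the other 4 held 33.7 to 35.8 CPM, and at 53.2 CPM in TAC 29P library S3, where the other 5 held 36.6 to 41.1 CPM. Nqo2 was at 42.0 CPM in Sham Veh library S5 against 30.8 to 32.9 CPM, and at 37.6 CPM in TAC 29P library S8 against 29.98 to 32.4 CPM. Txndc11 was at 20.9 CPM in TAC 29P library S18, one of those with atrial transcripts, against 11.7 to 13.3 CPM. In all 82 sets of values were examined (41 members in 2 groups), and chance flags about 1 in 20 of them.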

How the results depend on the processing

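The scaling moved the counts, and the members share the shift of all genes between the deposited CPM and the other factors. In TAC Veh against Sham Veh, the 9 higher and 5 lower members became 1 and 15 with TMM factors, 2 and 15 with median-of-ratios factors, and 3 and 9 with TMM factors without S18, S19 and S20. The lower count was 9 with totals without mitochondrial-encoded genes and 3 without the expression filter, with only the groups compared, or without S18, S19 and S20. In TAC 29P against Sham 29P, the 17 higher and 3 lower became 6 and 9 with either set of factors, 7 and 8 with totals without mitochondrial-encoded genes and with TMM factors without S18, S19 and S20, and 3 and 0 with a covariate for the runs of library name numbers. For surgery over both treatments, the 26 higher and 7 lower became 6 and 20 with either set of factors, 11 and 11 with totals without mitochondrial-encoded genes, and 7 and 18 with TMM factors without S18, S19 and S20. At an unadjusted p of 0.05 or less there were 14 higher and 8 lower in TAC Veh against Sham Veh, 26 and 5 in TAC 29P against Sham 29P, 9 lower in Sham 29P against Sham Veh and 2 for the interaction.

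Leaving out each library in turn gave 0 to 10 higher and 1 to 7 lower in TAC Veh against Sham Veh, 3 to 22 and 0 to 4 in TAC 29P against Sham 29P, 18 to 28 and 5 to 9 for surgery, and 0 for 29P within TAC, within Sham and for the interaction. The higher count moved by over 1.5 times without S2 (0) in the first comparison and without S14 (3) in the second. The lower count in the first comparison was 1 without S2 and 3 without S1, S3, S8, S11, S12, S13, S16 or S20, and in the second it was 1 without S14 and 0 without S15. No paired analysis was possible because no library number is shared between groups.

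Differences that changed sign for surgery were, with TMM factors, Cat -0.14, Gstm4 -0.023, Gclc -0.014, Hmox2 -0.17, Txndc12 -0.049, Txndc16 -0.069, Txndc17 -0.017, Txn1 -0.12 and Txnrd3 -0.063. With median-of-ratios factors they were Cat -0.14, Gstm4 -0.018, Gclc -0.0078, Hmox2 -0.16, Txndc12 -0.043, Txndc16 -0.063, Txndc17 -0.011, Txn1 -0.11 and Txnrd3 -0.057. With TMM factors without S18, S19 and S20 they were Cat -0.17, Gclc -0.0029, Hmox2 -0.14, Nqo1 -0.0062, Txndc12 -0.018, Txndc16 -0.095, Txn1 -0.073 and Txnrd3 -0.021. Hmox2 in TAC 29P against Sham 29P was -0.12, -0.12 and -0.10 under these 3 settings. The cause of these changes of sign was not tested beyond the shift of all genes. The added constants and the variance trend moved no count by over 1.5 times.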
